A study of Nicotiana tabacum with 39 samples.

Results

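The step from 2 h to 4 h of light after darkness in tobacco leaves was described from 6 of the 39 libraries of a time course. These were the 3 taken at 4 h and the 3 taken at 2 h. The libraries were chosen by the harvest time in their titles. Soil-grown Nicotiana tabacum plants, grown to near maturity in long days of 16 h light at 350 uE per m2 per s, had been put as whole plants into extended darkness and then returned to light. The leaves at 4 h and at 2 h shared the extended darkness, whose length the labels do not give, and differed in the time since the return to light. Each library pooled polyA RNA from the middle section of 2 young leaves from each of 3 plants. The other libraries were taken after 5, 10 and 30 min and 1, 8, 16, 40, 64 and 112 h of light, at the end of darkness (0 h), and from control leaves with no dark treatment, with 3 libraries in each of the 13 groups.

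Leaves that grow in darkness are pale and hold etioplasts, plastids with a prolamellar body in place of stacked thylakoids. The plants here had grown in light before the darkness, and whether the sampled leaves held etioplasts was not checked. Light seen by phytochromes and cryptochromes removes repressors of greening such as the PIF transcription factors. Light absorbed by protochlorophyllide on its oxidoreductase drives the reduction to chlorophyllide, which starts the build-up of chlorophyll, thylakoid membranes and the photosynthetic complexes. In other plants many of the first light-responsive transcripts are transient, while those for photosynthesis proteins rise more slowly.

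Transcripts are given by their NCBI GI numbers, which the sources used here do not pair with gene names, so transcripts were grouped by their behaviour at other times and the leaf label was not checked against marker genes. No leaves kept in darkness until 2 h or 4 h were sampled, so time in light and clock time cannot be told apart. Because the samples are bulk tissue, fewer cells of a type and less RNA per cell cannot be told apart either.

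The 4 h libraries held 18583695, 23050894 and 24318502 counts (replicates 1 to 3), and the 2 h libraries 18928595, 18003739 and 37269515 counts. All 39 libraries lay between 15844109 and 37269515 counts, and 42181 of 53725 transcripts passed the filter on low counts. The 2 h libraries formed a tight group, while the 4 h libraries were mixed with those at 8 h. The libraries at 1, 2, 4, 8 and 16 h were compared by Pearson correlation of log2 CPM (counts scaled to library size, on a log2 scale) across transcripts. Among these, 4 h replicate 1 was nearest to 8 h replicate 3 (r = 0.987), and 4 h replicate 3 was nearest to 8 h replicate 2 (r = 0.984). Only 4 h replicate 2 was nearest to a library of its own time, 4 h replicate 3 (r = 0.976). Pairs within 4 h had r between 0.965 and 0.976, and pairs within 2 h between 0.979 and 0.981. Pairs of a 4 h with an 8 h library spanned 0.962 to 0.987, and pairs of a 4 h with a 2 h library 0.928 to 0.975. The coefficient of variation between libraries beyond counting noise was 18.7 to 25.5% within 4 h and 14.8 to 16.7% within 2 h, and 8.3% between 4 h replicate 1 and 8 h replicate 3. The counts of that closest pair still differed beyond sampling noise, with a chi-square of 5.87 per degree of freedom, so they were kept as separate libraries. Whether the tissue, the sampling or the labels made the 4 h and 8 h libraries alike was not tested.

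**Figure D1:**
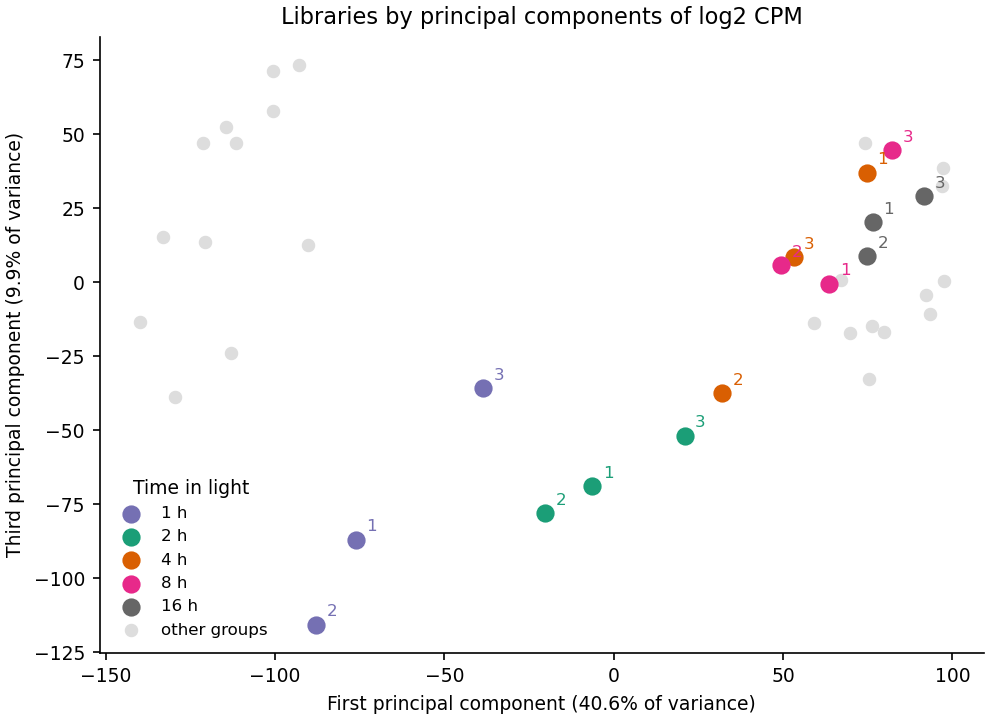
The first and the third principal component of log2 CPM, with 1 point per library, numbered by replicate for 1, 2, 4, 8 and 16 h of light and grey for the other groups. On the first component the 4 h libraries lie at 74.7, 32.0 and 53.1 (replicates 1 to 3), all above the 2 h libraries at -6.3, -20.2 and 20.9, and replicates 1 and 3 fall within the range of the 8 h libraries, 49.4 to 82.2. The second component (16.9% of variance) is not drawn. On it the times overlap, with 4 h libraries at -72.2, -57.0 and -88.7 and 2 h libraries at -76.1, -51.1 and -56.4.

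Between 2 h and 4 h many transcripts rose or fell, most of them by less than 2-fold. By the quasi-likelihood test of edgeR, with p-values adjusted over all transcripts and called under 0.05, 6932 of 42181 transcripts (16.4%) differed at 4 h against 2 h. Of these, 3158 rose (7.49% of all tested) and 3774 fell (8.95%). The median log2 difference was 0.77 among the risers and -0.83 among the fallers, against -0.01 over all tested transcripts, whose quartiles were -0.33 and 0.29. A change of at least 2-fold was reached by 950 risers and 1363 fallers, and one of at least 8-fold by 40 risers and 39 fallers. All 3 libraries at 4 h lay above all 3 at 2 h for 2792 risers (88.4%), and below them for 3628 fallers (96.1%). Over all tested transcripts the 4 h libraries lay wholly above in 13.8% and wholly below in 17.8%, and the calls were made on the same 6 libraries. The counts leaned on single libraries: without 4 h replicate 1, 2815 transcripts changed (1106 up and 1709 down), and without 2 h replicate 2, 3893 changed (1580 up and 2313 down). Without 2 h replicate 1, 2097 rose. Risers of at least 2-fold numbered 341 without 4 h replicate 1, 582 without 2 h replicate 2 and 1468 without 4 h replicate 2, and fallers of at least 2-fold numbered 750 without 4 h replicate 1. Fitted on the 6 libraries alone, 3939 changed, 1784 up and 2155 down.

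The step was as large as the one before it and was followed by a step with no call. From 30 min to 1 h, 4051 transcripts changed, 2194 up and 1857 down. From 1 h to 2 h, 6631 changed. Of these 3037 rose, 864 by at least 2-fold, and 3594 fell, 1341 by at least 2-fold. From 4 h to 8 h, 0 transcripts passed edgeR's adjusted threshold, and DESeq2 called 1. An unadjusted edgeR p under 0.05 was found for 1174 (2.78%), fewer than the share of 0.05 expected if nothing differed. Why the share was lower was not tested. By the same unadjusted threshold, 12542 (29.7%) differed at 4 h against 2 h. From 8 h to 16 h, 4234 changed again, 1684 up and 2550 down. The 0 became 76 without 4 h replicate 1 and 45 without 8 h replicate 2. Left out in turn, the other 4 libraries at 4 h and 8 h left it at 0. The count from 1 h to 2 h was 3241 without 1 h replicate 2, 3804 without 2 h replicate 3 and 4178 without 2 h replicate 1. Against the control, 7258 transcripts differed at 4 h and 11871 at 2 h.

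**Figure D2:**
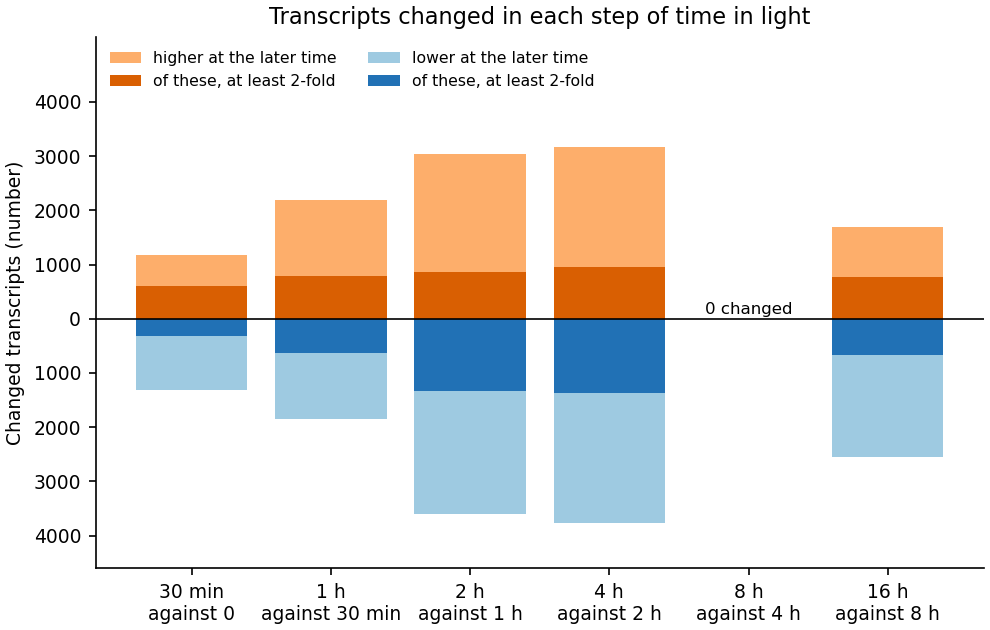
Number of transcripts changed in each step between neighbouring times (edgeR, adjusted p under 0.05), upward for those higher and downward for those lower at the later time, with darker bars for changes of at least 2-fold. The step from 2 h to 4 h has 3158 risers and 3774 fallers, close to the step before it, and the step from 4 h to 8 h has 0.

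The step from 2 h to 4 h differed from the step from 1 h to 2 h for 2017 of 42181 transcripts (4.78%), tested in edgeR as the difference of both steps. In 592 the later step was the more upward, with a median log2 change of 0.65 from 2 h to 4 h and -0.82 from 1 h to 2 h. In 1425 the later step was the more downward, with medians of -0.86 from 2 h to 4 h and 0.64 from 1 h to 2 h. The fitted differences had opposite signs in 1858 of the 2017. Both steps were called in opposite directions for 505 that rose by 2 h and then fell, and for 154 that fell by 2 h and then rose. These medians and counts describe lists chosen on the same values, and the matching shares over all tested transcripts were not computed. Both steps use the 2 h libraries with opposite sign, and the count was 1070 without 2 h replicate 1, 1227 without replicate 2, 1344 without replicate 3, and 1297 without 4 h replicate 1.

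The transcripts that rose at 4 h against 2 h had mostly been below control at 1 h, and many of them already at the end of darkness. At the end of darkness 1681 of the 3158 risers (53.2%) were below control and 337 (10.7%) above it, where 24.0% and 25.6% of all tested transcripts were. At 1 h of light 1938 risers (61.4%) were below control and 160 (5.07%) above it, beside a background of 20.2% and 24.2%. The position had turned by 8 h, when 1225 (38.8%) were above control and 66 (2.09%) below it, with a background of 11.5% above and 10.1% below. Set against control, the median riser lay at a log2 difference of -0.56 in 0 h leaves, -0.64 after 1 h, 0.42 after 8 h and 0.15 after 16 h. At 16 h 311 (9.85%) were above control and 39 (1.23%) below it, beside 2.73% and 3.69% of all transcripts.

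By history, the largest group of risers, 1505 (47.7%, against 14.3% of all transcripts), was below control both at the end of darkness and at 1 h. Another 392 (12.4%, against 5.60%) were not called at the end of darkness and were below control at 1 h. A further 715 (22.6%, against 37.3%) were called neither at the end of darkness nor at 1 h. Above control at both times were 125 risers (3.96%, against 15.9%).

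The transcripts that fell at 4 h against 2 h had mostly been above control at 1 h, but fewer of them since the dark period. At the end of darkness 1460 of 3774 fallers (38.7%) were above control and 766 (20.3%) below it, beside 25.6% and 24.0% of all transcripts. At 1 h 2319 (61.4%) were above and 99 (2.62%) below, beside 24.2% and 20.2%. At 8 h 259 (6.86%) were above and 1064 (28.2%) below, beside 11.5% and 10.1%. At 16 h 89 (2.36%) were above and 521 (13.8%) below, beside 2.73% and 3.69%. Set against control, the median faller lay at 0.21 in 0 h leaves, 0.66 after 1 h, -0.20 after 8 h and -0.15 after 16 h on the log2 scale. For fallers of at least 2-fold the median was -0.04 in 0 h leaves, 1.02 after 1 h and -0.46 after 8 h. The medians of risers and fallers thus crossed the control level in opposite directions between 1 h and 8 h. All these positions share the 3 control libraries.

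The fallers came from several histories. Above control both at the end of darkness and at 1 h were 1280 (33.9%, against 15.9% of all transcripts). Above control at 1 h without a call at the end of darkness were 801 (21.2%, against 7.46%). Another 238 (6.31%, against 0.832%) were below control at the end of darkness and above it at 1 h. A further 463 (12.3%, against 8.84%) were below control in darkness and not called at 1 h, and 713 (18.9%, against 37.3%) were called at neither time.

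Libraries outside both times showed the same directions. At 8 h against 1 h, a contrast without any 2 h or 4 h library, 2738 of the 3158 risers (86.7%) were higher and 16 lower, with a median log2 difference of 1.09. Of the 3774 fallers, 2973 (78.8%) were lower and 28 higher, with a median of -0.94. Over all tested transcripts 21.5% were higher and 24.1% lower at 8 h. Without each library at 1, 2, 4 or 8 h in turn, the share of risers that were higher ranged from 80.6 to 91.3%, and the share of fallers that were lower from 70.5 to 86.1%.

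On the path from 1 h to 8 h, the 4 h libraries lay farther along than the 2 h libraries. The path was set at 0% at the 1 h mean and 100% at the 8 h mean, and a library's place on it was the median log2 difference from 1 h. For the 3858 transcripts at least 2-fold higher at 8 h than at 1 h, the 4 h libraries had covered 108.6, 70.2 and 91.2% of the way and the 2 h libraries 46.8, 31.7 and 51.2%. For the 4947 at least 2-fold lower, the 4 h libraries had covered 103.4, 74.9 and 87.7% and the 2 h libraries 46.9, 33.9 and 52.5%. The means were 90.0 ± 19.2% at 4 h and 43.2 ± 10.2% at 2 h for the raised transcripts, and 88.7 ± 14.3% at 4 h and 44.4 ± 9.5% at 2 h for the lowered ones (SD, n = 3 each). The groups did not overlap, and 4 h replicate 1 lay beyond the 8 h mean. No test is given for these values, since an exact 2-sided permutation test of 3 against 3 libraries cannot go below p = 0.1.

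To follow overshooting transcripts by other libraries than those compared, 4 classes were formed from contrasts among control, 0 h and 1 h. Transcripts that at 1 h were at least 2-fold above both the end of darkness and the control (edgeR, adjusted p under 0.05) numbered 765, and the mirror class below both numbered 281. Transcripts at least 2-fold above control at the end of darkness and still above it at 1 h numbered 3806, and those at least 2-fold below it and still below at 1 h numbered 3431. A transcript can belong to more than 1 class. The calls came from the fit of all libraries. In a fit that left out 2 h and 4 h, 750 of the 765 overshooting transcripts were again in that class, and 55.9% of its 758 members fell.

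With all libraries, most of the overshooting class was called as falling between 2 h and 4 h. Of its 765 transcripts, 425 (55.6%) fell, 344 of them by at least 2-fold, 4 (0.523%) rose and 336 did not pass the test, beside 8.95% that fell and 7.49% that rose among all tested. The median log2 difference was -0.99, with quartiles of -1.50 and -0.49, and 92.2% of the class lay below zero. Relative to the 2 h mean, the class median was -1.38, -0.77 and -0.94 in the 4 h libraries and 0.02, 0.11 and -0.13 in the 2 h libraries. The class took 1.25, 3.28 and 2.82% of counts at 4 h and 4.05, 4.49 and 3.81% at 2 h. All 4 h libraries were thus below all 2 h libraries on both measures, with replicate 1 the lowest. Its share of counts averaged 4.08 ± 0.18% after 1 h, 1.80 ± 0.59% after 8 h and 0.889 ± 0.062% after 16 h of light (SD, n = 3 each). In controls it was 0.818 ± 0.10% (SD, n = 3). By share of counts every 4 h library thus lay above the 16 h mean. By class median relative to the 2 h mean, 4 h replicate 1 (-1.38) lay below the 16 h mean of -1.29. The 1 h and control libraries helped to choose the class, so the shares in them are not independent of that choice. Without 4 h replicate 1 the share of the class that fell was 35.9%, with a median of -0.87. That share was 48% without 4 h replicate 3, 45.4% without 2 h replicate 1 and 44.2% without 2 h replicate 2. It was 54.6% without 4 h replicate 2 and 51.4% without 2 h replicate 3. The class made up 11.3% of all fallers and 25.2% of those of at least 2-fold, and 1.81% of all tested transcripts.

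In the mirror class and in both classes left over from darkness, most transcripts did not pass the test: 206 of 281, 2972 of 3806 and 2548 of 3431. Those that did went mostly toward control, and the shares below stand beside 7.49% that rose and 8.95% that fell among all tested. Of the 281 transcripts below darkness and control at 1 h, 70 (24.9%) rose and 5 (1.78%) fell, with a median of 0.45. They took 0.497, 0.311 and 0.341% of counts at 4 h and 0.205, 0.185 and 0.246% at 2 h. Of the 3806 dark-raised transcripts still high at 1 h, 755 (19.8%) fell and 79 (2.08%) rose, with a median of -0.34. They took 5.10, 6.34 and 5.95% of counts at 4 h and 7.53, 8.13 and 6.44% at 2 h, so the groups were close without overlapping. Of the 3431 dark-lowered transcripts still low at 1 h, 847 (24.7%) rose and 36 (1.05%) fell, with a median of 0.41. They took 22.4, 19.4 and 20.0% of counts at 4 h and 15.1, 14.2 and 17.9% at 2 h. In controls this last class took 26.3 ± 1.7% of counts, and at 16 h 27.1 ± 0.60% (SD, n = 3 each). It made up 26.8% of all risers and 34.4% of those of at least 2-fold, and 8.13% of all tested transcripts. Without 4 h replicate 1, 12.2% of the mirror class rose, 9.49% of the still high class fell and 7.87% of the still low class rose. Without 2 h replicate 2 these shares were 12.2%, 10.4% and 10.2%.

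**Figure D3:**
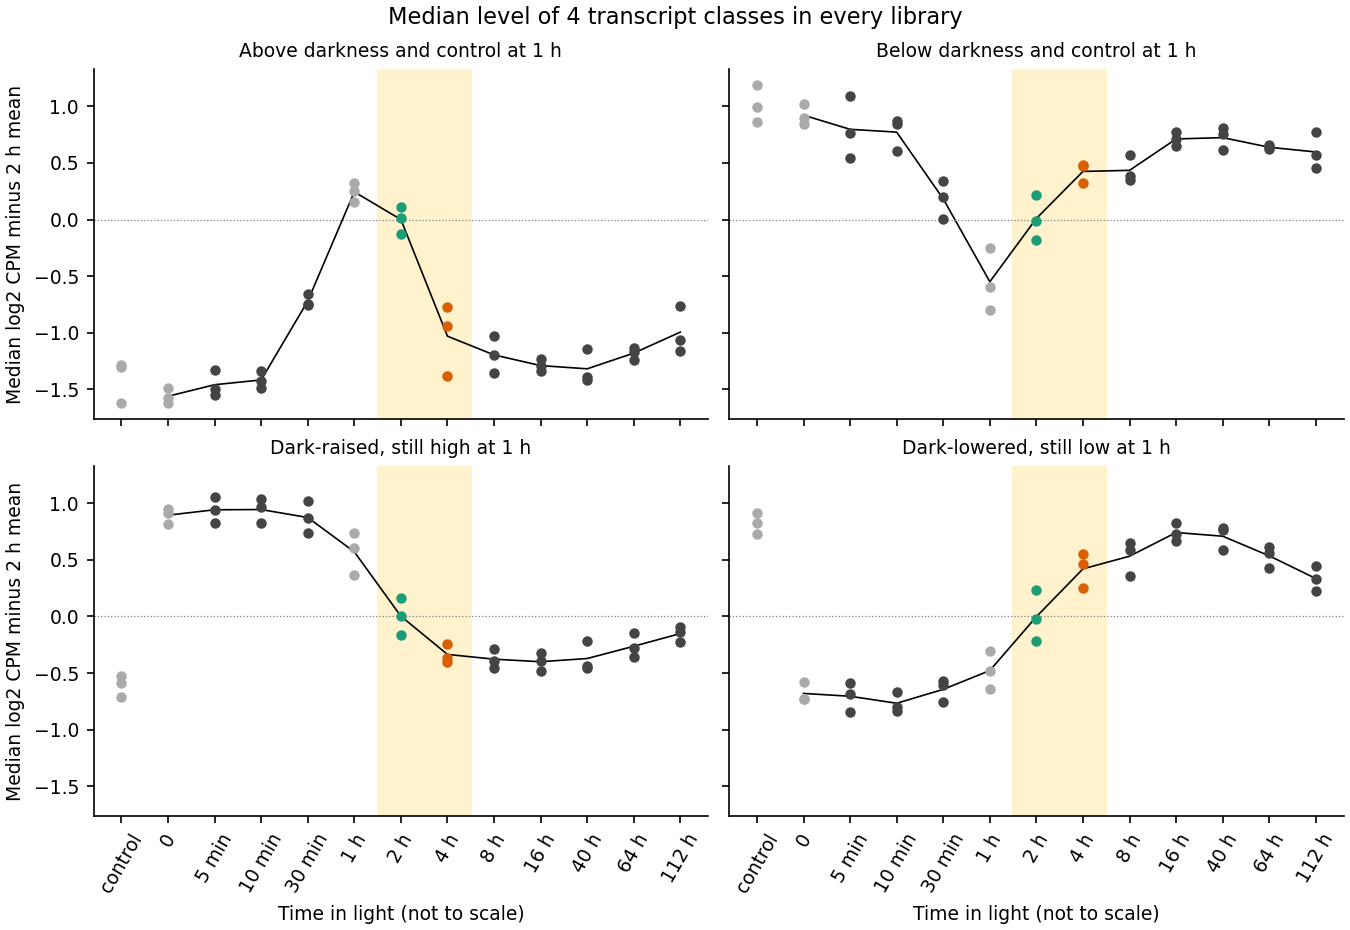
Median log2 CPM of each of the 4 classes in every library, relative to the 2 h mean of each transcript, by time in light (not to scale); points are libraries, the line joins group means, light grey points are the groups that chose the class, and 4 h is orange and 2 h green on a shaded band. The overshooting class has a mean of -1.03 at 4 h and -1.20 at 8 h, while the dark-lowered class has means of 0.42 after 4 h, 0.53 after 8 h and 0.74 after 16 h.

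**Figure D4:**
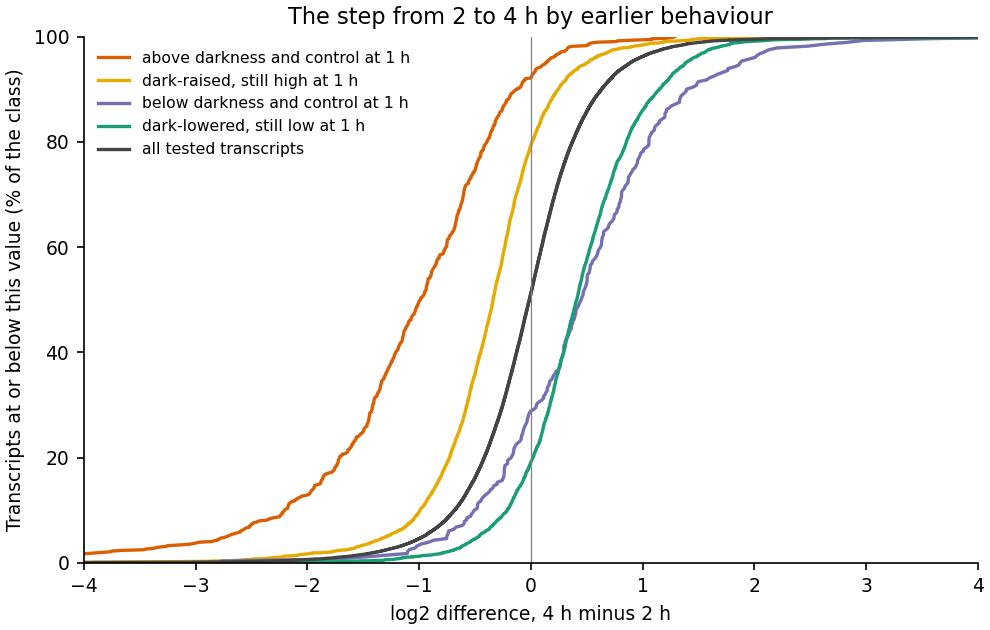
Cumulative share of transcripts (y axis, % of the class) at or below a given log2 difference of 4 h minus 2 h (x axis), for the 4 classes and for all tested transcripts. The overshooting class lies farthest to the left with a median of -0.99, and the curve for all transcripts is centred at -0.01.

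An overshoot defined at 2 h itself was measured in libraries that had no part in choosing it. With 2 of the 3 replicate numbers, 720 to 973 transcripts were at least 2-fold above both the end of darkness and the control at 2 h, and they were measured in the remaining replicate number. Their median log2 difference from control was 1.55 ± 0.32 after 2 h, 0.50 ± 0.17 after 4 h, 0.32 ± 0.22 after 8 h, 0.09 ± 0.11 after 16 h and 0.00 ± 0.10 after 40 h (SD over 3 held-out sets). At 4 h minus 2 h the median was -1.57, -0.86 and -0.69 with replicates 1, 2 and 3 held out, and 94.6, 90.2 and 87.5% of the transcripts were lower at 4 h. Every held-out set showed the fall, largest with replicate 1. In the mirror class of 190 to 370 transcripts the median difference from control was -0.91 ± 0.15 at 4 h and -1.22 ± 0.37 at 2 h, and the 4 h minus 2 h medians were 0.50, 0.38 and 0.00. A return of the low transcripts was therefore not seen in every held-out set. Within a held-out set each time is 1 library, set against the single control library or the single 2 h library of the same replicate number.

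Single transcripts are named by a rule of size. Fallers had to average 10 CPM or more at 2 h, with every 4 h library below every 2 h library, and risers 10 CPM or more at 4 h, with every 4 h library above. Of the 2123 fallers that did, the largest fall was that of transcript 698569853. It had 0.515, 14.3 and 11.7 CPM at 4 h and 159.7, 214.4 and 192.1 CPM at 2 h. The groups lay far apart, with the lowest value in 4 h replicate 1. Its log2 difference was -4.40 (SE 0.66, edgeR adjusted p = 2.52e-05), a 21.1-fold fall. The transcript averaged 3.99 ± 0.87 CPM at the end of darkness, 7.60 ± 3.15 CPM after 30 min, 76.9 ± 5.09 CPM after 1 h, 3.85 ± 5.80 CPM after 8 h, 0.218 ± 0.171 CPM after 16 h and 1.45 ± 0.477 CPM in controls (SD, n = 3 each). It belonged to the overshooting class.

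The largest fall left within that class was transcript 698569861, with 0.669, 15.0 and 14.0 CPM at 4 h and 162.1, 221.2 and 201.4 CPM at 2 h. Its log2 difference was -4.29 (SE 0.63, edgeR adjusted p = 1.75e-05). The pair of fallers stand 2 places apart in the deposited list, and their log2 CPM had r = 0.979 over the 33 libraries at other times. Near-identical copies could share reads, so they may not be separate measurements.

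Among the 1767 risers that met the rule, the largest rise was that of transcript 698508263, with 50.8, 3.71 and 0.656 CPM at 4 h and 0.0527, 0.422 and 0.138 CPM at 2 h. The rule itself asks for no overlap, and the transcript met its level through replicate 1, since the other 4 h libraries lay under 10 CPM. Its log2 difference was 6.53 (SE 1.19, edgeR adjusted p = 0.000294), and without 4 h replicate 1 it was 3.47. It averaged 39.8 ± 34.7 CPM after 8 h, 5.83 ± 1.51 CPM after 16 h and 0.283 ± 0.0473 CPM in controls (SD, n = 3 each).

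The largest rise among dark-lowered transcripts still low at 1 h was that of 698482857, with 37.6, 17.3 and 10.8 CPM at 4 h and 0.422, 0.264 and 0.580 CPM at 2 h. Its log2 difference was 5.59 (SE 0.54, edgeR adjusted p = 2.12e-08), and without 4 h replicate 1 it was 4.95. It averaged 0.881 ± 0.705 CPM after 1 h, 30.6 ± 8.77 CPM after 8 h, 24.3 ± 5.24 CPM after 16 h, 47.0 ± 2.83 CPM after 112 h and 4.40 ± 1.53 CPM in controls (SD, n = 3 each). At 4 h it was above control (log2 difference 2.30, edgeR adjusted p = 0.000205), and at 2 h below it (log2 difference -3.29, edgeR adjusted p = 4.8e-05).

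**Figure D5:**
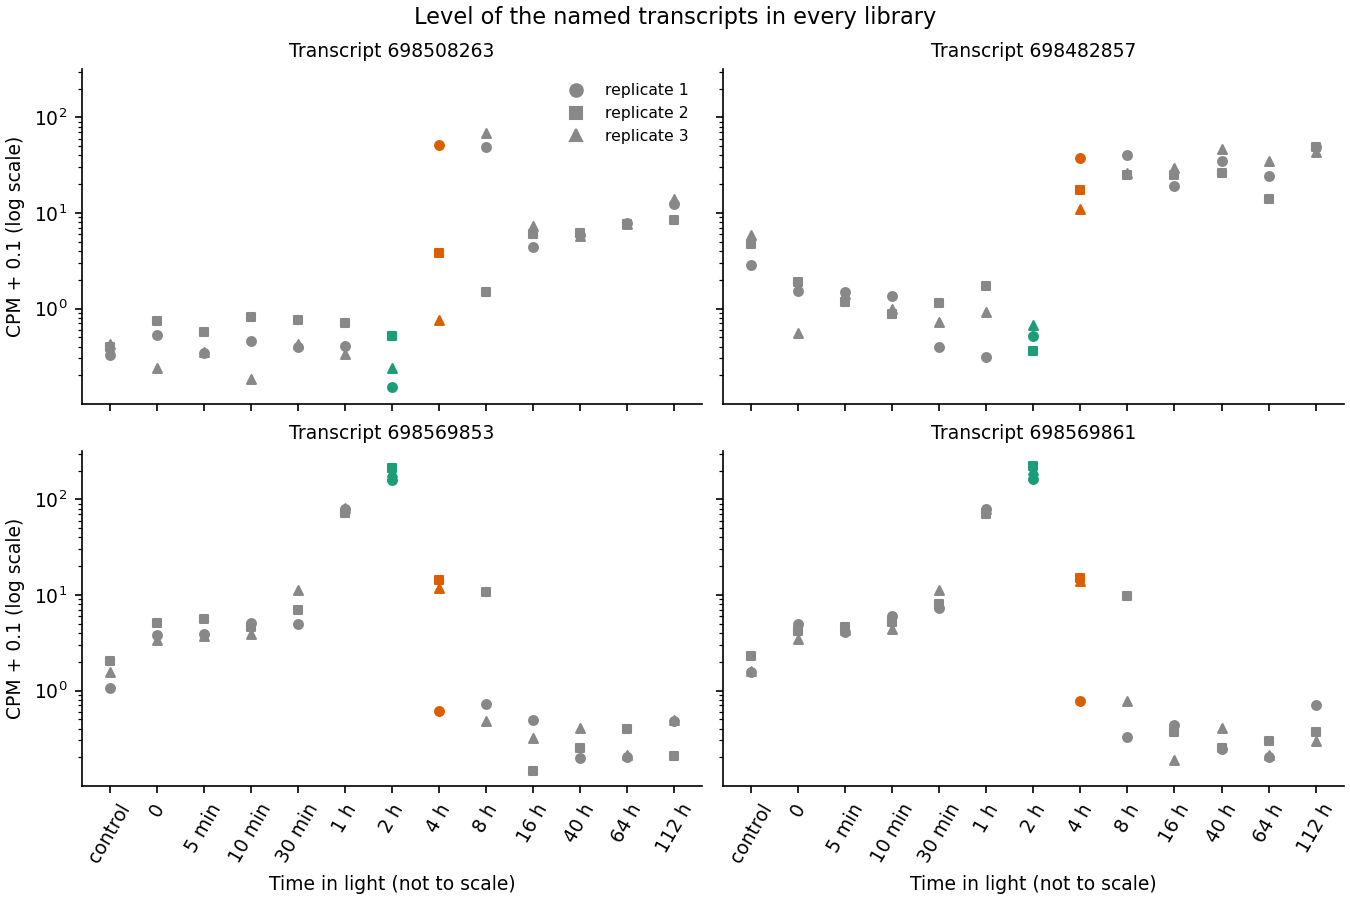
CPM plus 0.1 on a log scale for the 4 named transcripts in every library, by time in light (not to scale), with 4 h in orange, 2 h in green, other groups in grey and a marker for each replicate number. Both fallers peak at 2 h and lie at or below 15.0 CPM at 4 h, and 698508263 spans 0.656 to 50.8 CPM among the 4 h libraries.

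The changed transcripts were moderately abundant. Outside 2 h and 4 h, the median level was 11.0 CPM for risers, 8.86 CPM for fallers and 5.12 CPM for all tested transcripts, while those that changed at least 2-fold had medians of 3.49 CPM for risers and 3.84 CPM for fallers. Of the 100 transcripts most abundant at the other times, 5 rose and 7 fell, 1 and 4 of them by at least 2-fold, beside 7.49% that rose and 8.95% that fell among all tested. These 100 took 12.1 to 14.9% of counts at 4 h and 12.8 to 15.7% at 2 h. In the order of the deposited list, counting only tested transcripts, a direct neighbour that also rose was found for 48.4% of risers. One that also fell was found for 50.9% of fallers. Among all tested transcripts 13.7% had a neighbour that rose and 16.1% one that fell. The list order is that of the deposited files, and whether neighbours are copies of 1 gene was not tested.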

How the data were processed

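PolyA RNA was sequenced as single-end 100 bp reads from TruSeq libraries, per the labels' protocols, and the authors deposited raw counts of reads per transcript for each library, listed by NCBI GI number. The submitters' processing notes name FastQC 0.10.1, BWA 0.70 and SAMtools 1.0. The reference sequence, counting tool, use of strand and handling of reads that match several copies were not given in the sources used here. Because tobacco is an allotetraploid, counts of near-identical copies are uncertain. The labels' extract protocol also describes harvests of another design, which were not used. None of the 53725 identifiers (0) matched the 79372 genes of the reference table, so no names, gene lists or sequences are given, and the rule for named transcripts took 2 risers and 2 fallers.

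Replicates are separate pools of plants per the labels. The 39 libraries were fitted together in edgeR 4.0.16 (R 4.3.3) with 1 mean per group, TMM scaling, filterByExpr (minimum count 10, minimum total 15) and the quasi-likelihood test. P-values were adjusted by Benjamini-Hochberg over all 42181 tested transcripts. log2 CPM used a prior count of 1. Named transcripts were the largest rise, the largest rise of the dark-lowered class, the largest fall and the largest fall of the overshooting class, with at least 10 CPM and no overlap between groups. If a pick repeated, the next was taken. Each library at 1, 2, 4 or 8 h was left out in turn, but no control or end-of-darkness library was. DESeq2 1.42.0, other scalings, no filter, a fit of the 6 libraries and a replicate block were the other alternatives. Those for neighbouring steps, for levels against control, for leaving out 1 h or 8 h libraries, for DESeq2 on the classes and for classes without 2 h and 4 h were added after seeing the data, and the scripts were tested on simulated data. The libraries compared and the classes were chosen with earlier results of these data known.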

Additional observations from a re-analysis of the deposited data

Results flagged for a closer look

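The consecutive steps from 2 h to 4 h and from 1 h to 2 h differed from each other, by a test of the difference itself in edgeR, in 2017 transcripts, 592 with the later step more upward and 1425 with it more downward. DESeq2 called 2407, and the count ranged from 1070 to 2508 as each library at 1, 2 or 4 h was left out. The 2 h libraries enter both steps with opposite sign.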

How the results depend on the processing

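The 4 h against 2 h count was 6831 with RLE scaling, 6324 with library size only, 6167 with no filter on low counts, 7287 with DESeq2 and 9251 with a replicate block, against 6932. It was 3939 (1784 higher, 2155 lower) with the 6 libraries alone. The share of changed transcripts that were higher ranged from 39.3 to 49.5% over all settings. Same-numbered 4 h and 2 h libraries had deviations from their group means with r of -0.02, 0.17 and 0.16. The main fit did not pair samples by number, and the replicate block changed no named call. The block gave 2911 for the difference of steps. Replicate 2 had the lowest first principal component (40.6% of variance) in 13 of 13 groups. The numbers thus mark sets at least on that component, and the main fit leaves these sets out. Only libraries at 1, 2, 4 or 8 h were left out, never those of control or the end of darkness, which helped to choose the classes. Leaving out 1 library at a time gave 2815 to 7762 changed transcripts, 1106 to 3835 higher, 1709 to 3927 lower, 341 to 1468 at least 2-fold higher and 750 to 1755 at least 2-fold lower. It gave 1070 to 2508 for the difference of steps, 0 to 76 at 8 h against 4 h (DESeq2 called 1 with all libraries) and 3241 to 8940 at 2 h against 1 h. In the overshooting class 35.9 to 59.2% fell and 0.401 to 0.830% rose. In its mirror class 12.2 to 29.5% rose, with a median of 0.34 to 0.64. In the dark-raised class 9.49 to 21.3% fell and 0.867 to 2.38% rose. In the dark-lowered class 7.87 to 30.1% rose and 0.261 to 1.69% fell, with a median of 0.32 to 0.59. With no fold minimum, the median was -0.57 for the overshooting class and 0.30 for its mirror class. The held-out overshoot at 4 h minus 2 h had a median of -0.66 with no fold minimum, against -1.04. With library size only, 0.344% of the overshooting class rose. The cause of these shifts was not tested. No recomputed difference changed sign. Named calls stayed past the threshold without any 1 library at 2 h or 4 h, with edgeR adjusted p up to 0.0391 for 698508263. Depth limits transcripts of few counts, such as 698508263 at 2 h, and held-out classes were not refitted with a block.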
